A study of Mus musculus with 2 samples.

Results

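The 50 genes described here encode the mouse proteasome, its regulators and its assembly factors. They are the genes whose symbols begin with Psma, Psmb, Psmc, Psmd, Psme, Psmf or Psmg and that have at least 1 transcript typed protein_coding in the GENCODE M21 annotation of mm10, 50 of the 55536 genes in the tables and of 22028 protein-coding genes. Another 4 genes with such symbols, all without a protein-coding transcript, were left out. Psmc3ip carries the prefix but is known as a factor of meiotic recombination and not as a proteasome subunit. It was kept under the rule on symbols and is set apart below.

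The libraries hold nuclear RNA (a second label says nucleoplasmic) of macrophages grown from C57BL/6J mouse bone marrow, sequenced as total RNA after ribosomal RNA had been depleted. Both libraries came from cells that received Lipid A, the TLR4-binding part of bacterial lipopolysaccharide, at 100 ng/ml for 12 h, were then kept without it for 12 h, and received 100 ng/ml again for 120 min. The 2 samples are labelled biological replicates of this 1 condition, carry the same donor label and were made from 1 ug (replicate 1) and 500 ng (replicate 2) of RNA, so input and replicate cannot be told apart. No untreated or singly treated cells were analysed here, so every level below is a description of cells treated in this way, and p-values measure only how these 2 libraries differ, which may be technical.

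The proteasome is the protease that degrades ubiquitin-tagged proteins. Its 20S core is a stack of rings made of alpha subunits outside and beta subunits inside, of which Psmb5, Psmb6 and Psmb7 carry the cutting sites, and its 19S cap recognises, unfolds and feeds in the substrate. In immune cells exposed to interferon, Psmb8 (LMP7), Psmb9 (LMP2) and Psmb10 (MECL-1) can take the places of Psmb5, Psmb6 and Psmb7 to form the immunoproteasome, whose peptides are loaded onto MHC class I. Psme1 and Psme2 form PA28, a ring that caps the core in place of 19S and is induced by interferon as well.

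The gene tables hold 28450309 expected counts in replicate 1 and 16940220 in replicate 2, of which the 50 genes took 0.174% and 0.146%. Levels are given in TPM, which adjusts for transcript length and scales each library to the same total. Short structural and mitochondrial RNAs took 76.1% and 67.8% of all TPM, so the levels of other genes are small numbers on this scale. By counts, mitochondrial genes alone took 4.15% in replicate 1 and 10.3% in replicate 2. All 6 macrophage markers listed (Adgre1, Csf1r, Lyz2, Cd14, Cd68 and Itgam) were detected, from 51.0 to 1300.2 TPM in replicate 1 and from 48.8 to 1228.9 in replicate 2. Of 19 markers of T, B and NK cells, neutrophils, fibroblasts, endothelium, dendritic cells, erythroid cells, thymic epithelium and germ cells, 18 were under 1 TPM in both libraries and 7 had 0 counts in both, and the exception was the erythroid gene Alas2 at 0.84 and 1.77 TPM. The summed TPM of each such list ran from 0 to 0.88 in replicate 1 and from 0 to 1.77 in replicate 2.

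Of the 50 genes, 46 were detected, meaning 1 TPM or more in both libraries, against 39.6% of protein-coding genes. In RNA of a bulk of cells, fewer cells of a type and less RNA per cell cannot be told apart. Their median level was 15.01 TPM in replicate 1 and 18.2 TPM in replicate 2 (16.6 ± 2.26, SD, n = 2), where the median detected protein-coding gene stood at 6.53 and 9.53 TPM. The genes not detected were Psmb11, Psma8, Psmc3ip and Psmg1. Psmb11, the catalytic subunit of the thymoproteasome of thymic cortical epithelium, had 1 and 0 expected counts and was listed at 0.01 and 0 TPM; a count of 0 in replicate 2 allows up to 0.177 CPM, counting error only. The authors' second transcript table, made with another quantification, gave Psmb11 0.39 and 1.26 TPM, so its level near 0 depends on the table. Psma8, the alpha subunit of the testis form, was at 0.16 and 0.40 TPM, and Psmc3ip at 0.12 and 0.77 TPM. Those 3 genes had the lowest mean levels of the 50.

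**Figure D1:**
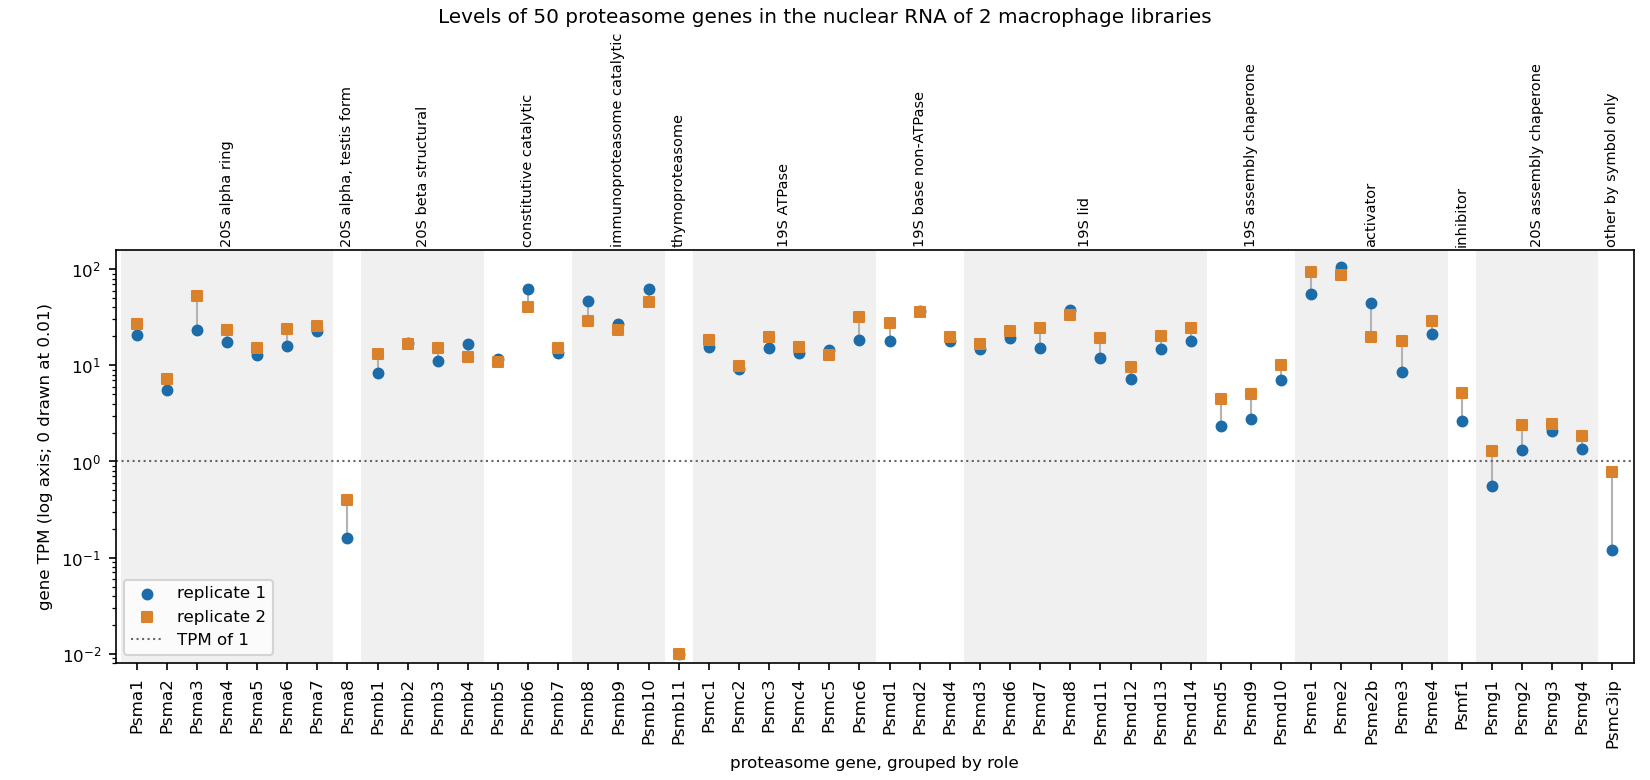
TPM of each of the 50 genes in replicate 1 (circles) and replicate 2 (squares), on a log axis and grouped by role, with grey lines joining the libraries. The median of the 31 standard subunits is 15.5 and 19.6 TPM, and the assembly chaperones and the inhibitor Psmf1 lie below that median in both libraries. By mean of these TPM, Psmb6 (61.8 and 40.7 TPM) is the highest of the 31 and Psma2 (5.57 and 7.24 TPM) the lowest.

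The 31 subunits of the standard 26S particle with a symbol in the set (7 alpha, 7 beta and 17 cap subunits) stood close to one another. Their median was 15.5 TPM in replicate 1 and 19.6 TPM in replicate 2, and the mean levels of 25 lay within 2-fold of their median and of all 31 within 3-fold. The lowest of them by mean was the alpha subunit Psma2 (5.57 and 7.24 TPM) and the highest the catalytic subunit Psmb6 (61.8 and 40.7 TPM). Both places depended on the measure. In the second transcript table Psmd14 (mean 34.5 TPM) was above Psmb6 (30.9). Psmd12 (5.65) and Psmb5 (6.05) were below Psma2 (8.79) there. On protein-coding transcripts alone Psmd2 (mean 31.9 TPM) was above Psmb6 (28.7). The 7 alpha ring genes had a median of 17.5 and 23.98 TPM. Psma3 was the highest of the ring by mean, at 23.4 TPM in replicate 1 and 52.3 in replicate 2. That is over 2-fold in TPM, but the size depended on the scale. With short structural and mitochondrial RNAs left out of the total, Psma3 was at 98.0 and 162.3 TPM. In the comparison of counts given below, its log2 ratio was 0.35, replicate 2 over replicate 1. The 4 structural beta genes Psmb1, Psmb2, Psmb3 and Psmb4 ranged only from 10.7 to 16.9 TPM by mean.

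The 19S cap was of a like level. Its 6 ATPases Psmc1 to Psmc6, the ring that unfolds substrates, ranged from 9.49 TPM by mean (Psmc2) to 25.2 (Psmc6). The non-ATPase subunits of the base, Psmd1, Psmd2 and the ubiquitin receptor Psmd4, had means of 22.6, 36.4 and 18.9 TPM. The 8 genes of the lid, which includes the deubiquitinase Psmd14, ranged from 8.37 (Psmd12) to 35.6 TPM (Psmd8), and Psmd14 itself was at 17.8 and 24.3 TPM.

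The assembly chaperones of the set were lower by median. The 19S chaperones Psmd5, Psmd9 and Psmd10 had means of 3.42, 3.89 and 8.55 TPM. The 20S chaperones Psmg1, Psmg2, Psmg3 and Psmg4 ranged from 0.92 to 2.27 TPM by mean, from no more than 95 counts in either library. In the second transcript table Psmg2, Psmg3 and Psmg4 fell short of 1 TPM in replicate 1. Psmf1 (PI31), known as an inhibitor of the core in vitro, was at 2.65 and 5.10 TPM. Each of these chaperones and the inhibitor had a lower level than the median of the 31 standard subunits in both libraries.

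The catalytic genes were set side by side. Psmb5, the chymotrypsin-like subunit, was at 11.7 TPM in replicate 1 and 10.9 TPM in replicate 2. Its immunoproteasome counterpart Psmb8 was at 47.0 and 28.9 TPM. Psmb6, the caspase-like subunit, was at 61.8 and 40.7 TPM, and its counterpart Psmb9 at 27.2 and 23.3 TPM. Psmb7, the trypsin-like subunit, was at 13.3 and 15.3 TPM, and its counterpart Psmb10 at 62.6 and 45.2 TPM. Psmb8 and Psmb10 were thus above the genes they replace in both libraries and Psmb9 below its own. In the authors' deposited 95% credibility intervals of TPM, Psmb8 ran from 44.3 to 48.7 in replicate 1 and from 25.5 to 30.9 in replicate 2, and Psmb5 from 10.4 to 12.8 and from 9.00 to 12.4. By the ranges of the 2 libraries, Psmb10, Psmb6 and Psmb8 overlapped one another, Psmb9 lay below them, and Psmb7 and then Psmb5 were lowest without overlap.

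As ratios of gene TPM within a library, Psmb8 exceeded Psmb5 4.02-fold in replicate 1 and 2.65-fold in replicate 2 (mean log2 1.71 ± 0.43, SD, n = 2). Psmb10 exceeded Psmb7 4.69-fold and 2.95-fold (log2 1.90 ± 0.47). Psmb9 stood at 0.44 and 0.57 times Psmb6 (log2 -0.99 ± 0.27). The 3 immunoproteasome genes together held 61.2% and 59.3% of the TPM of the 6 catalytic genes, and 61.0% and 60.6% in the second transcript table. On protein-coding transcripts alone they held the smaller part, 43.5% and 34.5%, and 44.5% and 35.2% in the second transcript table. With 2 libraries of 1 condition no test was made, and whether these ratios differ from those of resting macrophages was not analysed here.

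The ratios depended on which transcripts were counted. Summing only transcripts typed protein_coding, Psmb8 was at 13.7 and 6.78 TPM, Psmb9 at 13.5 and 5.91 and Psmb10 at 15.3 and 10.9, while Psmb5 kept 11.7 and 10.9, Psmb6 had 32.1 and 25.3 and Psmb7 had 11.5 and 8.53. On these values Psmb8 was 1.17 times Psmb5 in replicate 1 and 0.62 times in replicate 2, which turns the sign of the mean log2 ratio to -0.23 ± 0.65. Psmb10 remained above Psmb7 in both libraries, at 1.34 and 1.28 times (log2 0.39 ± 0.04), and Psmb9 below Psmb6, at 0.42 and 0.23 times (log2 -1.68 ± 0.60). A measure that does not rest on how reads were divided between a gene's transcripts, expected counts per 1000 bases of its merged exons, was added after these values were seen. By it the log2 ratios were 0.41 ± 0.40 for Psmb8 over Psmb5, 1.39 ± 0.78 for Psmb10 over Psmb7 and -0.51 ± 0.37 for Psmb9 over Psmb6. Merged exons include those of transcripts not typed protein_coding, so this measure rests on the annotation. They came to 3381 bases for Psmb8 and 899 for Psmb5, which has only protein_coding transcripts. For Psmb10 and Psmb7 they came to 1705 and 3421 bases, and for Psmb9 and Psmb6 to 3660 and 1872.

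**Figure D2:**
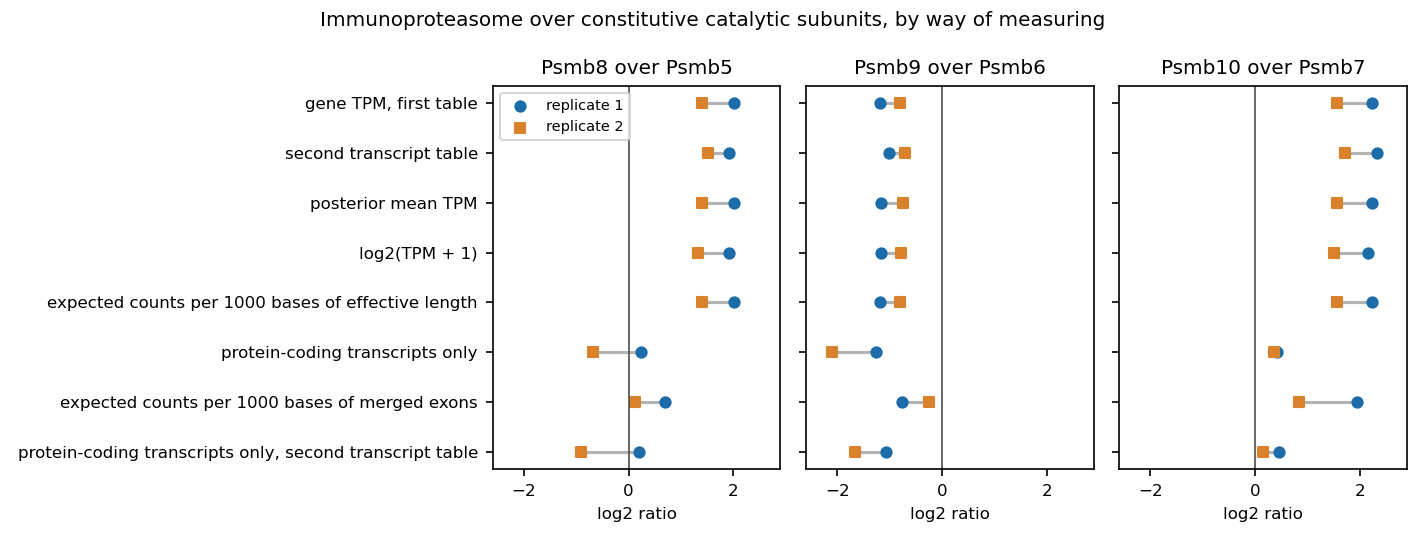
Log2 ratio of each immunoproteasome gene over the constitutive gene it replaces, in replicate 1 (circles) and replicate 2 (squares), for gene TPM and 7 other ways of measuring. Psmb10 over Psmb7 lies above 0 and Psmb9 over Psmb6 below 0 in every row, whereas Psmb8 over Psmb5 lies on both sides of 0 when only protein-coding transcripts are summed.

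**Figure D3:**
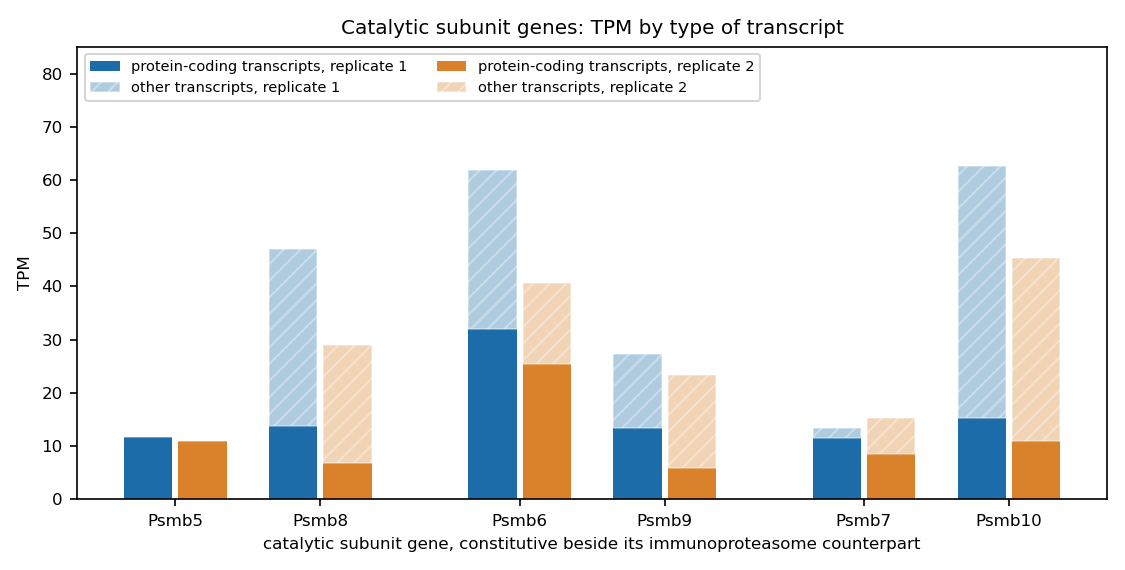
TPM of the 6 catalytic genes in each library (replicate 1 blue, replicate 2 orange), each bar split into protein-coding transcripts (solid, below) and all other transcripts (hatched, above). The solid part of Psmb8 is 1.17 and 0.62 times that of Psmb5 and the solid part of Psmb10 is 1.34 and 1.28 times that of Psmb7, and the hatched parts make up over 50% of the bars of Psmb8, Psmb9 and Psmb10.

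Transcripts of other types are those that GENCODE types as retained_intron, nonsense_mediated_decay or processed_transcript; a retained_intron transcript is an annotated form that keeps an intron. They held 70.9% and 76.6% of the TPM of Psmb8, 50.6% and 74.6% of Psmb9 and 75.5% and 75.8% of Psmb10. For the constitutive genes the shares were 48.1% and 37.8% for Psmb6 and 14.2% and 44.4% for Psmb7. Psmb5 has no annotated transcript of another type, so its 0% is set by the annotation, and any reads from its introns had no transcript of their own to be assigned to. By expected counts instead of TPM the shares were 79.9% and 84.5% for Psmb8, 67.1% and 83.6% for Psmb9, 44.6% and 48.4% for Psmb10, 45.4% and 36.8% for Psmb6 and 31.9% and 69.0% for Psmb7. The share of Psmb7 by counts in replicate 2 was thus above that of Psmb10, so the order of the 2 genes depends on the scale.

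For Psmb8 (chr17:34197721-34201454, plus strand, mm10) the larger part of these TPM lay on 1 transcript of 1234 bases, which keeps the intron chr17:34199381-34199570 between coding exons. That transcript had 23.3 and 12.0 TPM, from 1148 and 256 counts, against 12.4 and 6.20 TPM for the leading protein-coding transcript. The letters at this junction show what tells the forms apart. Each line has the same 30 bases of the upstream exon, followed in the spliced form by 30 bases of the next exon and in the retained form by the first 30 bases of the intron, whose first 2 bases are in capitals. The junctions of Psmb10 (intron chr8:105937382-105937493, minus strand) and Psmb6 (intron chr11:70526674-70527178, plus strand) are printed beside it because their retained forms were also quantified, at 5.51 and 4.53 TPM for Psmb10 and 6.87 and 5.28 TPM for Psmb6. In the second transcript table the printed retained forms had 9.45 and 7.08 TPM for Psmb8 and 3.66 and 3.52 TPM for Psmb6. That of Psmb10 had only 0.49 and 0 TPM there. The printed forms of Psmb10 and Psmb6 were not their leading retained forms by mean TPM. The sequences are from the GENCODE M21 transcripts and none of these bases lies in an annotated UTR.
Psmb8 spliced: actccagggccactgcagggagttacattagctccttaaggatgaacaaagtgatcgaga
Psmb8 retained: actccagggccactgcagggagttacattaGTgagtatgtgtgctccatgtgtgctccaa
Psmb10 spliced: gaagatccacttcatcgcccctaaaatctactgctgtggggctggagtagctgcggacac
Psmb10 retained: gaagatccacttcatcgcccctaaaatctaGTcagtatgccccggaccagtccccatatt
Psmb6 spliced: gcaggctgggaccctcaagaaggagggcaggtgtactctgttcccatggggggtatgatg
Psmb6 retained: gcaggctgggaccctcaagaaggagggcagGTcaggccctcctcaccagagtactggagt

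At each of these junctions the intron opens with GT, the usual first letters of an intron. The assignment of reads to spliced and retained forms rests on the reads that cross such a point or lie within the intron, which the deposited tables do not list.

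The share of Psmb10 has another source. A processed_transcript of 426 bases took 51.3% and 52.7% of its TPM but only 20.6% and 21.5% of its counts. Its effective length, the number of positions at which a fragment can start, was 191 and 209 bases, so each count on it weighs more in TPM than a count on a long transcript. Psmb9 (chr17:34181987-34187764, minus strand) shares 212 exonic bases with Tap1 on the opposite strand, and Tap1, the peptide transporter gene, was at 138.8 and 101.7 TPM. The strand setting of the quantification is not given in the sources used here, so the part of Tap1 reads in the Psmb9 value was not tested.

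Over the whole set the share of TPM on transcripts of other types was not high in the first table. Its median over the 48 genes whose counts averaged at least 10 was 22.9% and 29.95%, against 18.7% and 23.7% for protein-coding genes under the same filter. Among the 42 with an annotated transcript of another type the medians were 26.4% and 32.5%, against 27.1% and 33.8% for such protein-coding genes. The 3 immunoproteasome catalytic genes were among 9 of those 42 with over 50% in both libraries (21.4%), against 19.4% of such protein-coding genes, a share near the background. The other 6 were Psma3, Psmc6, Psmd6, Psmd9, Psmf1 and Psmc3ip. All 9 were also over 50% in both libraries in the second transcript table, where 14 of the 42 were. The share of protein-coding genes over 50% there was not computed, so the comparison with them covers the first table only. Retained-intron transcripts alone had a median of 26.4% and 31.4% over the 33 genes with one, against 23.4% and 29.7% of TPM for protein-coding genes.

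**Figure D4:**
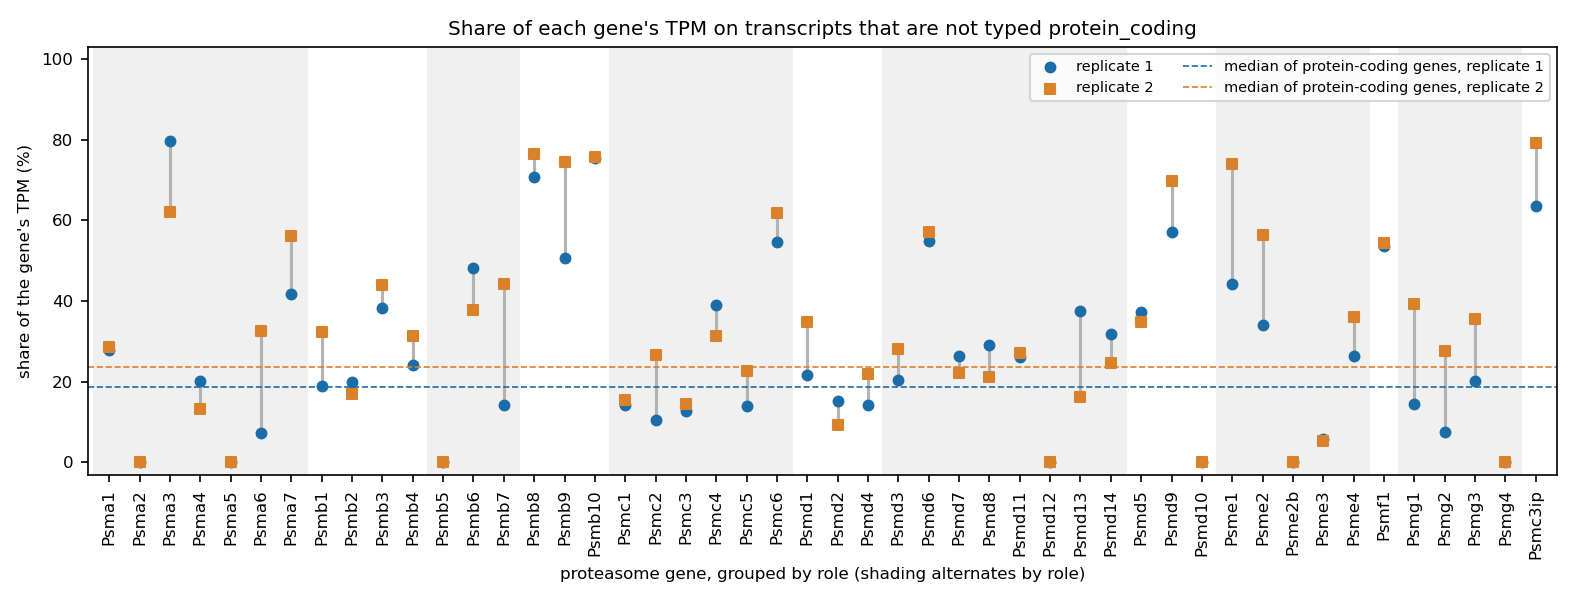
Percent of each gene's TPM on transcripts not typed protein_coding, in replicate 1 (circles) and replicate 2 (squares), for the 48 genes whose counts averaged at least 10; dashed lines are the medians over protein-coding genes, 18.7% and 23.7%. Psmb8, Psmb9 and Psmb10 lie above 50% in both libraries, and genes at 0 include those with no annotated transcript of another type.

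By mean gene TPM, the activators Psme2 and Psme1 ranked highest of the 50 genes; in replicate 1 Psme1 lay below Psmb10 and Psmb6. Psme2 (PA28 beta) was at 104.2 TPM in replicate 1 and 86.4 in replicate 2, and Psme1 (PA28 alpha) at 55.1 and 94.4 TPM, so that Psme2 was the higher in replicate 1 and Psme1 in replicate 2; in the second transcript table Psme2 was the higher in both, by 1.69 and 1.03 on the log2 scale. The expected counts of Psme1 were 2059 and 935, and its higher TPM in replicate 2 came with a nonsense_mediated_decay transcript of 439 bases that went from 3.73 to 54.4 TPM and from 1.82% to 27.1% of the gene's counts. On protein-coding transcripts alone Psme1 was at 30.7 and 24.5 TPM and Psme2 at 68.7 and 37.7, with Psme2 the higher in both libraries; in the second transcript table the order on coding transcripts turned in replicate 2, where Psme1 was at 16.4 and Psme2 at 8.10 TPM. The mean of Psme1 on coding transcripts, 27.6 TPM, was below those of Psmd2, Psme2b and Psmb6 in the first table. Psme3 (PA28 gamma), the nuclear member that forms rings by itself, was at 8.54 and 18.1 TPM, below Psme1 and Psme2 in both libraries. Psme4 (PA200), a single-chain nuclear activator, was at 20.95 and 28.9 TPM.

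Psme2b, a gene of 1 exon on chromosome 11, was listed at 44.1 and 19.5 TPM. Of its 31-base words, 78.4% also occur in another gene, above all in Psme2, and 33.5% of those of Psme2 occur in another gene, above all in Psme2b, so the split of reads between the pair is uncertain. Psme2b also overlaps 9930111J21Rik1 on the same strand and shares 41 exonic bases with it, and that gene was at 31.5 and 22.8 TPM. Gm12185 (3.26 and 1.97 TPM) overlaps Psme2b on that strand too, with 0 shared exonic bases. The 31-base words were compared on the strand of the transcripts only. Overlaps on the opposite strand, as the 212 exonic bases of Psmb9 with Tap1, are thus not counted. By this measure 17 of the 50 genes shared none, among them Psmb9 and Psmb10. Another 15 shared 5% or more of their words with another gene, among them Psmb5 (71.7%, most with Gm3375) and Psma5 (58.7%, most with Gm8394). The level of Psmb5, the denominator of the first ratio above, is therefore among the less certain.

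Expected counts of each gene were compared between the libraries by the exact binomial test, two-sided, with library sizes scaled by TMM and p-values adjusted over 14698 genes by the Benjamini-Hochberg method; it covers counting error and compares these libraries only. Of the 48 genes of the set that were tested, 33 differed, against 59.9% of all genes, 5 being higher in replicate 2 (29.7% of all genes) and 28 lower (30.2%). With plain library sizes, which move the median of all genes by 0.16 on the log2 scale, 11 were higher (39.2% of all genes) and 22 lower (22.1%). The median log2 ratio of the set, replicate 2 over replicate 1, was -0.34, where that of all tested genes was 0.01. The sizes were not large: the median absolute log2 ratio was 0.36 over the set and 0.45 over all tested genes. On the TPM scale 37 of the 50 genes were higher in replicate 2, and once short structural and mitochondrial RNAs were left out of the total 22 were, so a direction between the libraries holds only relative to its scale.

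The genes that fell most from replicate 1 to replicate 2 relative to the TMM scale were Psme2b, from 1306 to 254 counts (log2 -1.78, adjusted p = 2.64e-90 by the exact binomial test), Psmb8, from 2276 to 634 counts (log2 -1.26, adjusted p = 2.05e-95), and Psmb6, from 1628 to 488 counts (log2 -1.15, adjusted p = 8.68e-60). All 3 immunoproteasome catalytic genes were lower in replicate 2, with log2 ratios of -1.26 (Psmb8), -1.01 (Psmb10) and -0.63 (Psmb9), as were Psmb6 and Psmb5 (log2 -0.69). Psmb7 gave log2 0.09, with 766 and 544 counts (adjusted p = 0.348). The calls higher in replicate 2 were Psma3, Psmd5, Psme3, Psmf1 and Psmc3ip, of which only Psma3 and Psmd5 were also called in the second transcript table. Psme3 had 962 and 885 counts (log2 0.46, adjusted p = 3.47e-11), and Psmc3ip, with 5.54 and 14.6 counts, had the highest ratio of the set (log2 1.84, adjusted p = 0.0114). In the second transcript table their log2 ratios were 0.12 and 0.73 and neither passed the test. Psmg1 had the third highest ratio (log2 0.36) from 20 and 17 counts, and was not called (adjusted p = 0.586).

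The GC content of a gene's transcripts moved with these ratios. Spearman's rho between GC and the log2 ratio was -0.58 over the 48 genes and -0.47 over all 14698 tested genes. Of these, 14688 had a GC value and the rest were given the median. Between transcript length and the log2 ratio rho was 0.43 over the 48 genes. These are descriptions over genes that share 2 libraries. Psmb8 and Psmb10 had 55.6% and 57.8% GC, and Psma3 and Psmd5, which were higher in replicate 2, 43.5% and 45.6%. Other genes departed from this, as Psme4, called lower with 40.5% GC, and Psme3, called higher with 49.5%. The part of GC or length in the calls was not tested.

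**Figure D5:**
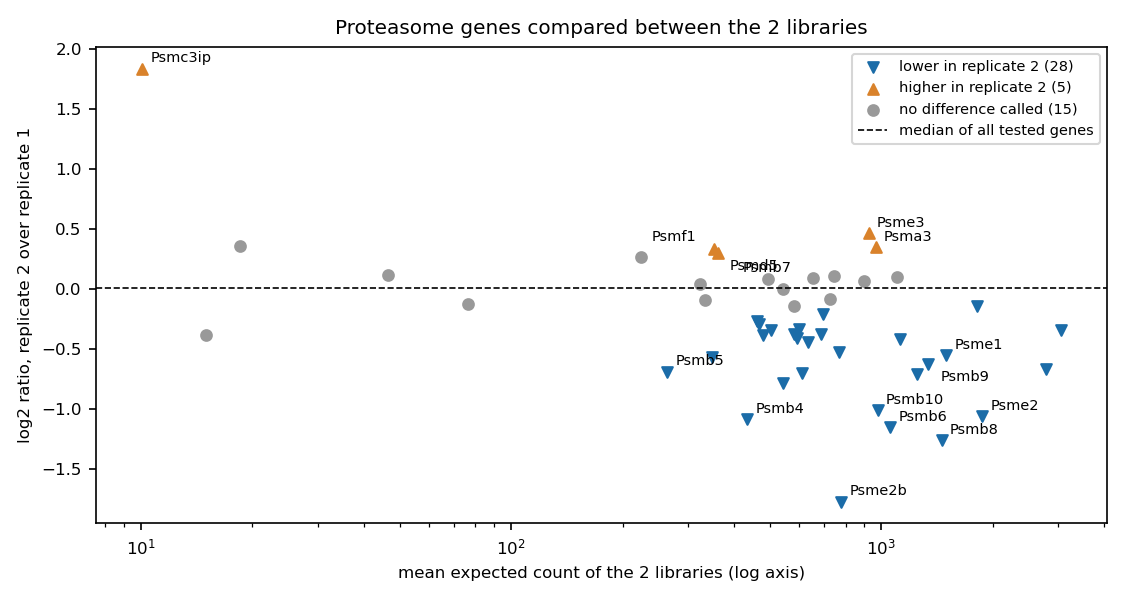
Log2 ratio of replicate 2 over replicate 1 after TMM scaling against the mean expected count (log axis) for the 48 genes tested, with calls by the exact binomial test as triangles and the median of all tested genes, 0.01, as a dashed line. The 28 genes lower in replicate 2 include Psmb5, Psmb6, Psmb8, Psmb9 and Psmb10, and Psmb7 lies near the line.

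Genes that work with the proteasome but carry other symbols were given as a list. All 21 were detected, against 39.6% of protein-coding genes. Their median of 19.5 and 22.5 TPM was close to that of the set. They include Pomp, which matures the 20S core (19.5 and 13.9 TPM), the cap subunits Adrm1 (18.2 and 17.3 TPM) and Sem1 (13.8 and 17.8 TPM), and the cap-bound deubiquitinases Usp14 (14.9 and 29.9 TPM) and Uchl5 (3.02 and 7.83 TPM). Of the 21, 5 were higher and 12 lower in replicate 2 by the exact binomial test, against 29.7% and 30.2% of all tested genes. Nfe2l1, the factor known to raise proteasome genes when the proteasome is impaired, was at 72.9 and 95.9 TPM, and Ddi2, the protease that activates its product, at 3.94 and 4.54 TPM.

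The class I peptide loading genes and their interferon-linked regulators were higher by median than the set, though Tapbpl (9.44 and 8.39 TPM) lay below the set's median. All 13 were detected, against 39.6% of protein-coding genes. Their median was 146.5 and 130.9 TPM. By the same exact binomial test 0 were higher and 11 lower in replicate 2, against 29.7% and 30.2% of all tested genes. H2-K1 was at 2553 and 2712 TPM, and B2m at 907.9 and 1165 TPM. The regulators Irf1 (146.5 and 130.9 TPM) and Nlrc5 (82.5 and 112.1 TPM) were both above Psmb8, Psmb9 and Psmb10 in both libraries. Psmb8 and Psmb9 lie with Tap1 and Tap2 in the MHC region of chromosome 17. Tap1 was 5.10-fold and 4.37-fold above Psmb9 in TPM.

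Promoter windows of 300 bases, 250 before and 50 after the start, were matched in RefSeq (GRCm38.p6) for 42 of the 50 genes and searched on both strands. Only the first window of each gene was counted, so motifs at other starts are missed. The antioxidant response core TGACNNNGC, the motif bound by Nfe2l1 and Nfe2l2, was found in 6 of the 42 (14.3%; Psmb5, Psmb6, Psmc6, Psmd9, Psmd12 and Psme4), against 12.5% of 27025 windows. The interferon-stimulated response motif (GAAA, any 2 bases, GAAA) was in 5 (11.9%; Psmb3, Psmd4, Psmd9, Psme1 and Psmg4), against 3.49% of windows, and the gamma-activated site motif TTCNNNGAA in 3 (7.14%; Psmb8, Psmd2 and Psmg1), against 8.47%. CCAAT was in 15 (35.7%), against 37.9%. These shares are descriptions of letters in the windows. The windows of Psmb5 (chr14:54618023-54618245, minus strand) and Psmb6 (chr11:70525107-70525356, plus strand) are printed as far as they lie outside annotated UTRs, since both are catalytic genes with the Nfe2l1 motif, which is in capitals.
Psmb5 promoter: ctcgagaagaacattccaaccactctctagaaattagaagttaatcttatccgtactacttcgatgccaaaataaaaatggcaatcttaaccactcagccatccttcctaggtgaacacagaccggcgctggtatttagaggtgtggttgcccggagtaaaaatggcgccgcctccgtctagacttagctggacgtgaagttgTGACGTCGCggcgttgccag
Psmb6 promoter: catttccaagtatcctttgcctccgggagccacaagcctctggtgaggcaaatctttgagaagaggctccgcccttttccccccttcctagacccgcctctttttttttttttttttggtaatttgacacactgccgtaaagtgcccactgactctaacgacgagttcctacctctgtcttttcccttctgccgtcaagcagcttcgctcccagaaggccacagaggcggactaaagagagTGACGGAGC

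In both windows the motif stood in the part nearest the start of the gene. Several genes of the set also share a start region with a neighbour on the opposite strand. The distance between the starts was 32 bases for Psmc2 and Dnajc2, 75 for Psma2 and Mrpl32, 75 for Psmc5 and Ftsj3, 76 for Psma7 and Ss18l1 and 137 for Psmb1 and Tbp. Psmc2 was at 9.19 and 9.78 TPM where Dnajc2 was at 7.36 and 11.5, and Psmb1 at 8.41 and 13.0 TPM where Tbp was at 3.85 and 7.30. Psma2 was at 5.57 and 7.24 TPM where Mrpl32 was at 3.48 and 7.37. The other pairs were further apart. Psma7 was at 22.75 and 25.83 TPM where Ss18l1 was at 1.26 and 2.17, and Psmc5 at 14.5 and 12.9 where Ftsj3 was at 3.79 and 9.12.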

How the data were processed

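Ribosomal-RNA-depleted nuclear RNA of 2 libraries was quantified by the authors on mm10 with GENCODE M21, per the file headers and README files; for tools, versions and strand, nothing is given in the sources used here. The gene tables hold expected counts and TPM deposited by the authors, with posterior means and the bounds of each TPM's credibility interval (a signal on the TPM scale computed by the authors), and a second transcript table holds estimated counts and TPM deposited by the authors. Gene names and transcript types came from GENCODE M21.

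Genes were chosen by symbol, and the members and lists were chosen with earlier results of these data known; 1 listed gene is not reported here by name. Levels are TPM with mean and SD over 2 libraries. Expected counts were rounded and compared with an exact binomial test at TMM-scaled library sizes (edgeR 4.0.16; DESeq2 1.42.0 size factors as an alternative) for genes whose counts averaged 10 or above, at an adjusted p under 0.05 with a prior count of 0.5 in the log2 ratio. edgeR's quasi-likelihood test needs 2 groups and was not used. The test was checked on simulated counts that held counting error only, so the check does not cover other spread between libraries. Depth was 28450309 and 16940220 counts, and intervals and limits cover counting error only. Named genes were the catalytic, activator and outlying genes (highest and lowest 3 by mean TPM, largest 3 ratios in each direction), the rest being given by ranges with examples chosen after their values were seen. Alternatives were another table, transcript set, scale, filter and leaving out each library. Analyses used Python 3.11.15, scipy 1.17.1 and R 4.3.3.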

Additional observations from a re-analysis of the deposited data

How the results depend on the processing

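No paired analysis was possible because there is 1 group. The median level of the set, 16.6 TPM, became 11.2 TPM in the second transcript table and 59.6 TPM when short structural and mitochondrial RNAs were left out of the total, and ran from 15.01 to 18.2 TPM over the single libraries; 43 to 47 genes were detected under any setting but the stricter 5 TPM, which left 40. With protein-coding transcripts only, the log2 ratios were -0.23 for Psmb8 over Psmb5, -1.68 for Psmb9 over Psmb6 and 0.39 for Psmb10 over Psmb7, and -0.36, -1.36 and 0.31 in the second transcript table. Per merged exon they were 0.41, -0.51 and 1.39. The single libraries gave 1.40 to 2.01, -1.18 to -0.81 and 1.56 to 2.23. The other settings for these ratios moved them by less than 1 SD. The median share of TPM off protein-coding transcripts, 26.4%, became 41.6% in the second transcript table, where that of protein-coding genes was not computed. Genes higher in replicate 2 numbered 5 of 48 tested (29.7% of all genes). They became 11 with plain library sizes (39.2%) and 3 in the second transcript table (32.1%), of which 2, Psma3 and Psmd5, were among the 5. Psme3 (log2 0.12), Psmf1 (0.084) and Psmc3ip (0.73) were not called there. Genes lower in replicate 2 numbered 28 (30.2% of all genes), and became 22 with plain library sizes (22.1%). Of the 50 genes tested in the second transcript table, 36 were lower, against 30.9% of all genes. These 36 included all 28. In that table the median log2 ratio of the set was -0.48, where that of all tested genes was 0.058. By a rule chosen after seeing the data, 17 of the 48 (35.4%; 1 above, 16 below) were both called and outside the middle 50% of all genes' ratios, against 41.4% of all genes. With plain library sizes the log2 ratio of Psmd1 became 0.024. In the second transcript table those of Psmb1 (-0.16), Psmb3 (-0.33), Psmb7 (-0.20), Psmc6 (-0.34) and Psmd7 (-0.21) turned negative and were called. The cause of these changes was not tested. Both libraries being of 1 condition and 1 donor label, SDs rest on 2 values, and genes under about 20 counts, as Psmg4 and Psmc3ip, are limited by depth.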
